A study of Mus musculus with 15 samples.

Results

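The expression of 31 lymphocyte genes, out of 51826 genes in the deposited tables, was followed in mouse mammary glands and mammary tumors. The genes were chosen by symbol: 16 T cell genes, 7 genes of natural killer (NK) and cytotoxic cells, 6 B cell genes and 2 plasma cell genes. All 31 symbols were found once. The data were RNA-seq of bulk tissue from 13 mice in 15 libraries, with the level of each gene given in TPM, a share of transcripts that is corrected for transcript length and scaled to a library total of 1000000.

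Trim24COE mice carried a transgene for Flag-tagged mouse Trim24, a chromatin reader, behind a stop cassette flanked by lox sites, and a Cre recombinase driven by the MMTV promoter, which is active in mammary epithelium. All of them descend from 1 integration of the transgene, present as a single copy. They gave 3 tumors labelled carcinosarcoma (mice 64, 567 and 897) and 3 labelled carcinoma (89, 273_5 and 3956). Carcinosarcomas hold both epithelial and mesenchymal tumor cells. The pathologists who read the sections differed on tumors 89 and 3956, which were read as carcinosarcoma or carcinoma, and on tumor 567, which was read as spindle cell carcinoma or carcinosarcoma, and the class in the label is used here. The 4 control glands (133, 392, 417_3 and 517_3) came from mice with MMTV-Cre and no Trim24 transgene, so Cre was shared by controls and Trim24COE tumors. The 3 non-TRIM24 tumors (219, FVB001 and FVB002) arose spontaneously and are labelled carcinoma. The genotype of these 3 mice was not known. The strain label is FVB for the samples, whereas the design text names a mixed background. The labels hold no ages. The control animals are described as age-matched, and the listed ages of the tumor mice were not used here. Trim24 RNA (ENSMUSG00000029833.17) was at 10.6 to 24.1 TPM in the Trim24COE tumors and 14.5 to 22.4 TPM in the control glands, so its level did not separate these 2 groups. It was at 5.34 to 10.04 TPM in the non-TRIM24 tumors, below all of them. The non-TRIM24 libraries belong to another deposited set of values, called batch 2 here. In it gland 133 and tumor 3956 gave 11.1 and 11.5 TPM of Trim24, against 14.5 and 16.5 TPM in their first libraries.

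T cells recognise antigen through a receptor that signals through the CD3 chains, with CD4 or CD8 as co-receptor and the kinases Lck and Zap70 behind them. Cytotoxic T cells and NK cells kill by releasing perforin and granzymes. B cells signal through the CD79 chains of their receptor and mature into plasma cells, which secrete antibody. A mammary gland holds scattered lymphocytes, and mouse mammary fat pads also hold lymph nodes, whose stroma makes chemokines such as Ccl19. In bulk tissue, fewer cells of a type and less RNA per cell cannot be told apart.

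Since TPM sum to a fixed total, depth was unknown and no counting error could be given. Between 21060 and 34209 genes were above 0. Gland 133 and tumor 3956 have a second library in batch 2, which also holds the 3 non-TRIM24 tumors. The other first libraries were in batch 1. Between the first and the repeat library of mouse 133 the 31 genes differed by a median of 0.16 on the log2(TPM + 1) scale, and 7 of them by over 0.5. For mouse 3956 the median was 0.12, and 2 genes differed by over 0.5. Control glands 417_3 and 517_3, labelled as separate mice, were as close to each other as repeats of 1 mouse. Their Spearman correlation was 0.980 over 14305 genes, against 0.972 for the pair of mouse 133, 0.973 for the pair of mouse 3956 and at most 0.944 for the 102 other pairs of libraries from different mice. The usage of immunoglobulin variable (V) genes, which differs between individuals, was also more alike between these 2 glands than between any other pair of libraries. The comparisons with the control glands were therefore repeated with these 2 glands averaged as 1 gland and with both left out, and calls lost in this way are given beside the results. Adipocyte content split the controls as well. The summed level of 8 adipocyte markers was 25230 and 37836 TPM in glands 133 and 392, 1916 and 2096 TPM in glands 417_3 and 517_3, and 168 to 1455 TPM in the Trim24COE tumors. The 8 mammary epithelial markers were present in every group, with sums of 1385 to 6307 TPM in the glands, 343 to 1406 TPM in the carcinosarcomas, 5904 to 6608 TPM in the carcinomas and, in the non-TRIM24 tumors, 1471 to 23400 TPM.

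**Figure D1:**
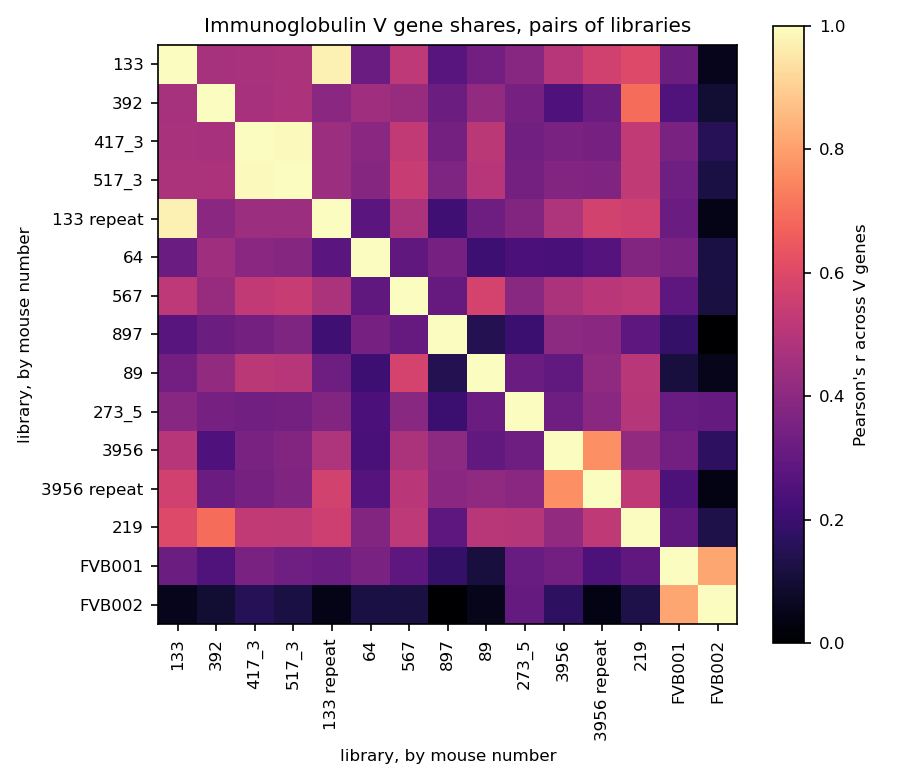
Similarity of immunoglobulin V gene usage between every pair of the 15 libraries, as Pearson's r across V genes (color, both axes are libraries by mouse number). The values correlated are each gene's share of the summed TPM of all heavy chain (Ighv) and kappa chain (Igkv) V genes together. Igkv genes gave the larger part of that total in every library. Glands 417_3 and 517_3 stand at 0.991, next to 0.973 for the 2 libraries of mouse 133 and 0.767 for those of mouse 3956. Tumors FVB001 and FVB002 stand at 0.815.

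The 31 genes lie on 15 chromosomes (GRCm38, GENCODE M21 annotation), with 6 of them on chromosome 6. Cd3g (chr9:44969572-44980431, minus strand), Cd3d (chr9:44981786-44987339, plus strand) and Cd3e (chr9:44998740-45009627, minus strand) sit side by side, with gaps of 1.4 kb and 11.4 kb. Cd8b1 and Cd8a are 35.9 kb apart on chromosome 6. RefSeq starts were available for 23 of the 31 genes, with 28 start sites (GRCm38.p6). The 250 bases before each start were searched on both strands for 3 short motifs of lymphocyte transcription factor families (a base may count for more than 1 of them): GGAAGT, a core bound by ETS factors, TGTGGT, a core bound by RUNX factors, and the longer palindromic motif of EBF. The ETS letters were found before 11 of the 28 starts (10 of 23 genes), against 19.7% of 32851 starts of all genes. The RUNX letters were found before 10 of the 28 (9 genes), against 14%. The EBF letters were found before 1, that of Cd22, against 0.779%. These matches describe letters, not bound sites. The following sequences are those of 5 of the 7 genes that were lower in Trim24COE tumors than in control glands, shown so that their starts can be compared. They run 5′ to 3′ along the gene's strand and end at the base before the start, and capitals mark the ETS or RUNX letters. Tbx21, Cd3e and Cd79a hold the ETS letters and Gzma the RUNX letters, while Cd27 holds neither.
Tbx21 (chr11:97115332-97115581, GRCm38.p6, minus strand): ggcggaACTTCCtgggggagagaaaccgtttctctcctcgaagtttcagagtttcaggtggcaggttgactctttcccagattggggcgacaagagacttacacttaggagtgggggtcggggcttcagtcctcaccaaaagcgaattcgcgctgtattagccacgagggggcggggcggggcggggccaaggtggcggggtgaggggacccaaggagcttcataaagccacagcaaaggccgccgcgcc
Cd27 (chr6:125237028-125237277, GRCm38.p6, minus strand): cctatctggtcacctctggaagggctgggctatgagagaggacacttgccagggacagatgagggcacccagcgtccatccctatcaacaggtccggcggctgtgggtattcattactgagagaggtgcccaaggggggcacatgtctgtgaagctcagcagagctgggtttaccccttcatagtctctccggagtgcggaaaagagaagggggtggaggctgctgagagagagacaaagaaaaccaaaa
Cd3e (chr9:45009612-45009861, GRCm38.p6, minus strand): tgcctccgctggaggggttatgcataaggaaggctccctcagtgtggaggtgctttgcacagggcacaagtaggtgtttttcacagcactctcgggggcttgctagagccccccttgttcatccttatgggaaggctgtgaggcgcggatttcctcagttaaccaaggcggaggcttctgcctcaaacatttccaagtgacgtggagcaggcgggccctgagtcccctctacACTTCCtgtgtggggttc
Gzma (chr13:113100982-113101231, GRCm38.p6, minus strand): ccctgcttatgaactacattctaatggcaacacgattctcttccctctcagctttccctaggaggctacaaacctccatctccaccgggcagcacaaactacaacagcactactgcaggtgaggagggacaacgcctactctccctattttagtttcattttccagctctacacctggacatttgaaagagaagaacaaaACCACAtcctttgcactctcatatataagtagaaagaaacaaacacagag
Cd79a (chr7:24897247-24897496, GRCm38.p6, plus strand): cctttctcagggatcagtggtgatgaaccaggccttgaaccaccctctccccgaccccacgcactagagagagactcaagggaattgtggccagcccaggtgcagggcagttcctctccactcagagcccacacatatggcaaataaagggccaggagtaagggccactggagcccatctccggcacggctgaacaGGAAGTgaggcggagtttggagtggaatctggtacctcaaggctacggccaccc

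All 31 genes were low. None reached 1 TPM in every one of the 13 mice, and 8 did so in 12 of them. The number of genes at 1 TPM or more per first library was 21 to 27 in the control glands, 18 to 23 in the carcinosarcomas, 22, 13 and 5 in carcinomas 89, 273_5 and 3956, and 14 to 25 in the non-TRIM24 tumors. Tumor 3956 had the lowest level of the 13 mice for 17 of the 31 genes. Its repeat library had 7 genes at 1 TPM or more, so the low levels returned in a separate library of the same mouse. Gland 392 had the highest level for 7 genes and gland 417_3 for 6.

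**Figure D2:**
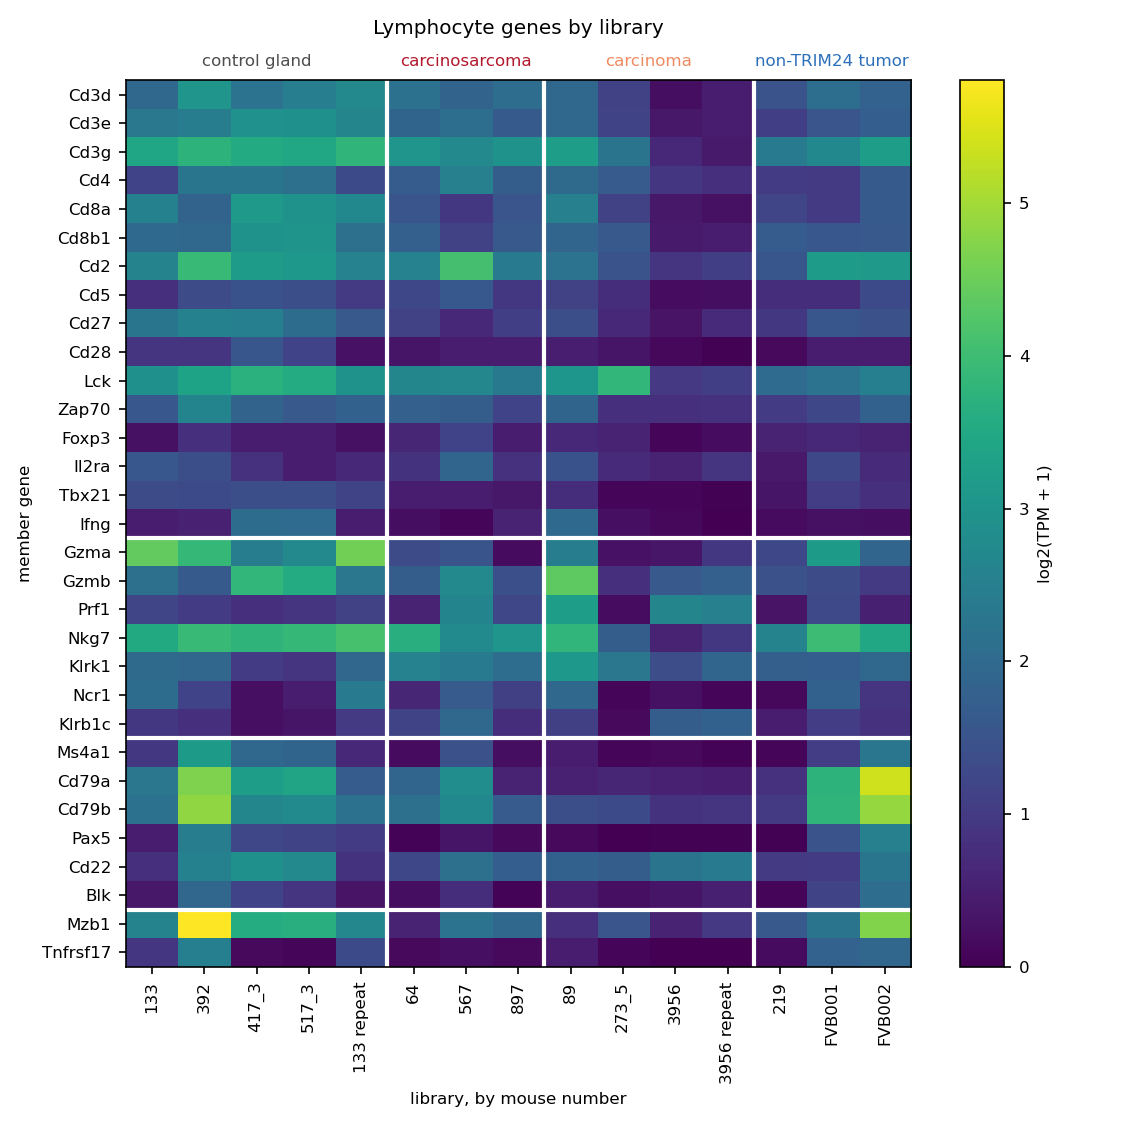
Level of each of the 31 genes (rows, by cell type) in each of the 15 libraries (columns, by mouse number and group), as log2(TPM + 1) in color. The column of tumor 3956 and that of its repeat are dark (low) for most T and B cell genes, whereas gland 392 and tumor FVB002 are bright (high) for Cd79a, Cd79b and Mzb1.

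To ask how the lymphocyte genes of Trim24COE tumors differed from those of the gland, the 6 tumors were compared with the 4 control glands by limma on log2(TPM + 1). Of the 31 genes, 25 were high enough to be tested (at least 1 TPM in 4 of the 10 libraries), and 7 of the 25 were lower in the tumors at an adjusted p under 0.05, with none higher. They were Cd3e, Cd27 and Tbx21 of the T cell genes, Gzma of the cytotoxic genes, Ms4a1 and Cd79a of the B cell genes, and Mzb1 of the plasma cell genes. Among all 15196 genes tested, 17.1% passed the same threshold, 9.13% as lower and 7.96% as higher. These shares also stand beside the count of every further list in this comparison. Without adjustment 12 of the 25 had p under 0.05. The difference was negative for 27 of the 31 genes, with a median of -0.79 on the log2 scale, beside a median of -0.04 over all genes tested. In 8 of the 31 genes every tumor lay below every gland, beside 7.2% of all genes tested, and in none did every tumor lie above, beside 7.39%. With glands 417_3 and 517_3 averaged as 1 gland, every tumor lay below every gland in 9 genes, beside 8.11%, and above in none, beside 8.47%. The 6 genes not tested were Cd28, Foxp3, Ifng, Pax5, Blk and Tnfrsf17. The counts out of 31 genes include them, whereas the percentages cover tested genes only. Cd28 and Pax5 are among the genes in which every tumor lay below every gland. Of the 7 genes called, Tbx21 alone passed the filter through the glands only, since no tumor reached 1 TPM, so its inclusion in the test was set by the difference itself. With the adipocyte markers as a covariate, only Cd27 of the 7 calls remained and Klrk1 was called higher. The log2 fold changes of the other 6 were then -1.35 for Cd3e, -0.95 for Tbx21, -1.42 for Ms4a1, -2.32 for Cd79a, -2.33 for Mzb1 and -1.24 for Gzma, of which that of Gzma alone moved by over 1.5 times. With glands 417_3 and 517_3 averaged as 1 gland, Cd3e and Ms4a1 lost their calls, and with both left out Cd79a lost its call as well.

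**Figure D3:**
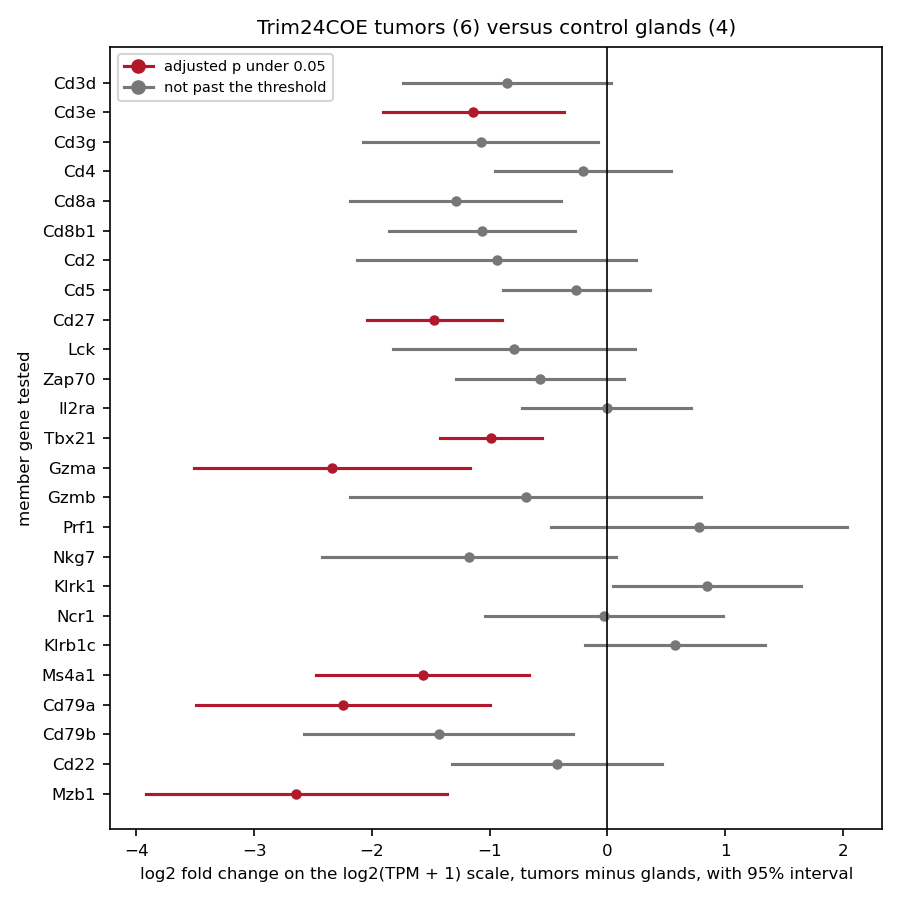
Difference of the 6 Trim24COE tumors from the 4 control glands for the 25 genes tested (points, log2 fold change on the log2(TPM + 1) scale, tumors minus glands) with 95% intervals. The 7 genes past the limma threshold all lie left of 0, from -0.99 for Tbx21 to -2.64 for Mzb1, and Prf1, Klrk1 and Klrb1c lie right of 0.

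The 16 T cell genes summed to 48.7, 73.7, 76.6 and 70.4 TPM in control glands 133, 392, 417_3 and 517_3. The sum was 37.3, 49.5 and 32.2 TPM in carcinosarcomas 64, 567 and 897, and 47.6, 30.4 and 6.26 TPM in carcinomas 89, 273_5 and 3956. Tumor 567 thus reached the lowest gland, and tumor 3956 stood below all others.

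Cd3e, a signalling chain of the T cell receptor complex, was at 4.03, 4.41, 6.71 and 6.53 TPM in the 4 control glands (in the order above). In the 6 Trim24COE tumors it ranged from 0.30 TPM (tumor 3956) over a median of 2.41 to 3.26 TPM, and the groups did not overlap. The tumors had a mean of 2.08 ± 1.10 TPM (SD, n = 6) and the glands of 5.42 ± 1.40 TPM (SD, n = 4). The log2 fold change was -1.14 with a standard error of 0.35 (limma adjusted p = 0.0464). This call was lost in 13 of 18 alternative settings, among them 8 of the 10 that left out 1 mouse (all but those without tumor 89 or tumor 567), with limma adjusted p = 0.110 and 0.116 without glands 417_3 and 517_3. The other CD3 chains had like values. Cd3g was at 9.71 to 12.6 TPM in the glands and 0.60 to 8.59 TPM in the tumors, again without overlap, but its adjusted p was 0.124. Cd3d was at 2.92 to 7.11 TPM and 0.17 to 3.51 TPM, with an adjusted p of 0.165.

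Cd27, a co-stimulatory receptor of T cells that memory B cells and NK cells also carry, was at 3.80, 4.88, 4.68 and 3.13 TPM in the control glands. The tumors ranged from 0.24 over a median of 0.84 to 1.65 TPM, so that every tumor lay below every gland. The log2 fold change was -1.47 with a standard error of 0.26 (limma adjusted p = 0.00424). Cd27 was called in all 18 alternative settings, with adjusted p between 0.00261 and 0.0494. The repeat of gland 133 gave 2.07 TPM, still above every tumor. Cd28, the co-stimulatory receptor of naive T cells, was at 0.83 to 1.93 TPM in the glands and 0.09 to 0.40 TPM in the tumors, too low to be tested, and its repeat in gland 133 was at 0.21 TPM, within the range of the tumors.

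Tbx21 (chr11:97098071-97115331, minus strand), the T-bet transcription factor of type 1 helper, cytotoxic and NK cells, was at 1.5, 1.48, 1.63 and 1.61 TPM in the control glands. The tumors ranged from 0.06 over a median of 0.32 to 0.70 TPM. No other of the 7 genes varied so little among the glands. The log2 fold change was -0.99 with a standard error of 0.20 (limma adjusted p = 0.00769, and 0.0303 without the filter on low values), and the call was lost in 1 of 18 alternative settings, the adipocyte covariate (adjusted p = 0.0554). Ifng, a cytokine that T-bet is known to activate, was at 0.38 and 0.44 TPM in glands 133 and 392 and at 3.13 and 3.06 TPM in glands 417_3 and 517_3. In the tumors it was at 2.96 TPM in tumor 89 and 0.08 to 0.50 TPM in the other 5, and it was not tested.

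The co-receptors differed. Cd8a and Cd8b1, the chains of the CD8 co-receptor of cytotoxic T cells, were at 2.61 to 7.81 and 2.88 to 6.97 TPM in the glands. In the tumors Cd8a was at 0.29 to 1.87 TPM apart from tumor 89 with 4.75 TPM, and Cd8b1 was at 0.33 to 2.73 TPM, below every gland. The log2 fold changes were -1.29 for Cd8a (standard error 0.41, limma adjusted p = 0.0520) and -1.06 for Cd8b1 (standard error 0.36, limma adjusted p = 0.0636), just outside the threshold. Without glands 417_3 and 517_3 they were -0.86 for Cd8a and -0.56 for Cd8b1. Cd4, the co-receptor of helper T cells, was at 1.26 TPM in gland 133, 3.43 to 3.81 TPM in the other 3 glands and 0.90 to 4.77 TPM in the tumors. Its log2 fold change was -0.21, with a 95% interval from -0.96 to 0.54 (limma adjusted p = 0.710). The ratio of Cd8a to Cd4 in TPM was 3.83, 0.692, 2.05 and 1.97 in the glands, 0.193 to 1.59 with a median of 0.684 in the Trim24COE tumors, and 0.980, 0.991 and 1.29 in non-TRIM24 tumors FVB001, FVB002 and 219. Gland 392 lay among the tumors in this ratio.

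Of the other T cell genes none passed the test. Lck, the kinase that starts signalling at the CD3 chains, was at 6.50 to 12 TPM in the glands. It was at 0.94 to 7.32 TPM in 5 tumors and at 13.4 TPM in carcinoma 273_5, the highest of the 13 mice, although Cd3e was only 1.28 TPM there. The ratio of Lck to Cd3e was 10.5 in that tumor and 1.61 to 3.13 in the other 9 mice of the comparison. Zap70, the kinase that binds phosphorylated CD3 chains, was at 1.99 to 5.10 TPM in the glands and 0.71 to 2.65 TPM in the tumors (limma adjusted p = 0.249). Cd2, an adhesion receptor of T and NK cells, was at 5.09 to 14.4 TPM and 0.84 to 16.1 TPM, with tumor 567 above every gland. Cd5, an inhibitory receptor of T cells, was at 0.74 to 1.75 and 0.15 to 2.01 TPM.

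The 2 genes of regulatory and activated T cells stood apart from the rest of the list. Foxp3, the transcription factor of regulatory T cells, was at 0.19 to 0.74 TPM in the glands and 0.06 to 1.23 TPM in the tumors. It was the only T cell gene with a positive difference (0.11 on the log2 scale) and was too low to be tested. Relative to Cd3e it was at 4.71%, 16.8%, 5.81% and 5.51% in glands 133, 392, 417_3 and 517_3, at 18.3% to 38.3% in the 6 Trim24COE tumors and at 21.2% to 42.3% in the 3 non-TRIM24 tumors. All glands lay below all tumors in this ratio, which rests on Foxp3 levels of at most 1.23 TPM and was chosen after its values were seen. The gap, from 16.8% in gland 392 to 18.3% in tumor 897, was narrow. Between libraries of 1 mouse the ratio went from 20.0% to 35.9% in tumor 3956 and from 4.71% to 3.82% in gland 133. Il2ra, the alpha chain of the interleukin 2 receptor, was at 0.39 to 1.97 TPM in the glands and 0.49 to 2.74 TPM in the tumors, which gave a log2 fold change of -0.01 with a 95% interval from -0.72 to 0.71 (limma adjusted p = 0.992).

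Of 20 further T cell genes listed as companions, 14 were tested, with 1 lower and 1 higher in the tumors. Beside the 9.13% lower and 7.96% higher of all genes tested, this is no excess of lower genes. Cd247, the zeta chain of the same receptor complex, was lower, at 1.62 ± 0.571 TPM (SD, n = 6) against 5.15 ± 1.79 TPM (SD, n = 4) in the glands (log2 fold change -1.22, limma adjusted p = 0.0106). Lcp2, an adaptor that T cells share with myeloid cells and platelets, was higher, at 12.7 ± 3.79 against 5.42 ± 1.89 TPM (log2 fold change 1.11, limma adjusted p = 0.0329). With glands 417_3 and 517_3 averaged, Cd247 was called and Lcp2 was not (limma adjusted p = 0.0544), and both were called with these glands left out. The median difference of the 20 companions was -0.43.

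**Figure D4:**
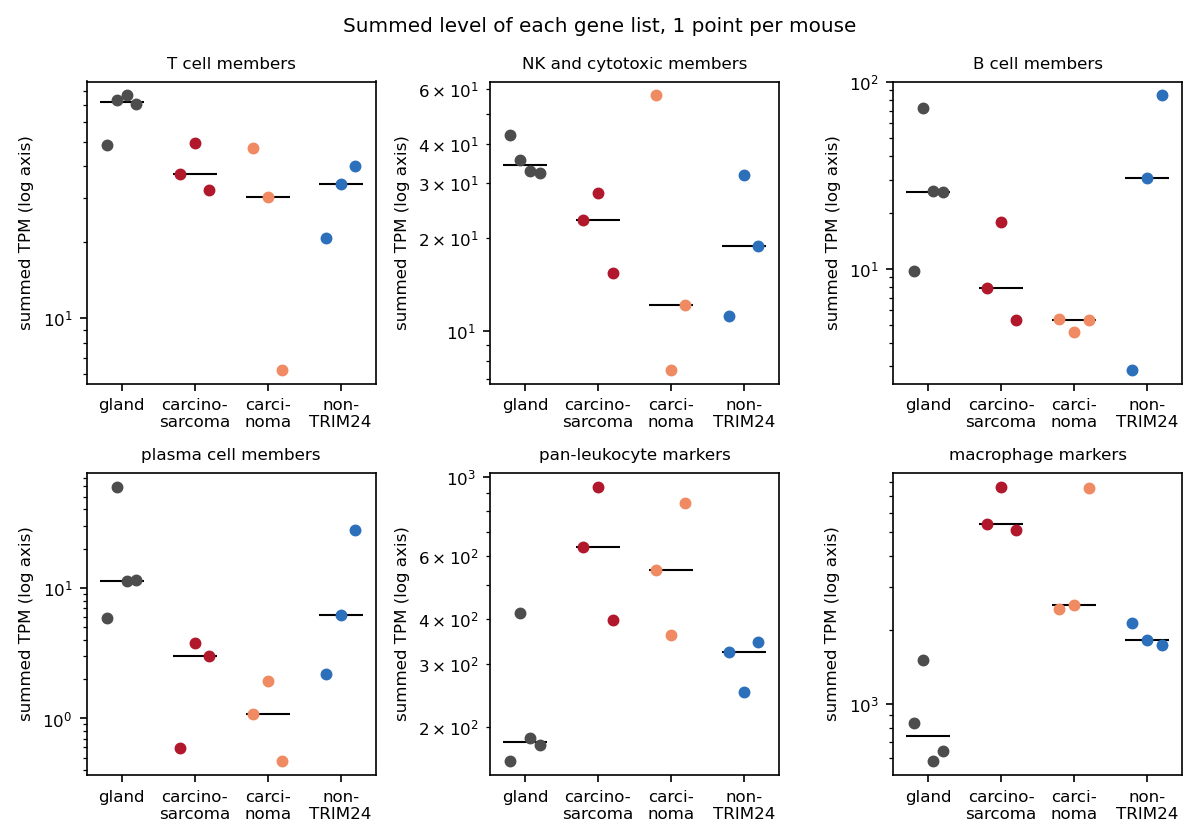
Summed TPM of each gene list in the first library of each mouse (log axis, 1 point per mouse), by group. The T cell sum of tumor 3956 (6.26 TPM) lies far below the other Trim24COE tumors (30.4 to 49.5 TPM), and the plasma cell sums of the 6 Trim24COE tumors (0.47 to 3.80 TPM) lie below those of the 4 glands (5.92 to 59.6 TPM).

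The 7 NK and cytotoxic genes did not move together. Their sum was 42.7, 35.6, 32.8 and 32.3 TPM in the 4 control glands, 22.7, 27.9 and 15.3 TPM in carcinosarcomas 64, 567 and 897, and 57.4, 7.51 and 12.2 TPM in carcinomas 89, 273_5 and 3956. Tumor 89 was above every gland and the other 5 tumors below every gland. All 7 genes were tested and 1 was lower, beside 9.13% of all genes tested. Of the 7 differences 3 were positive, with a median of -0.03.

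Gzma (chr13:113093825-113100981, minus strand), a granzyme of cytotoxic T and NK cells, was at 20.3, 13.5, 4.47 and 5.62 TPM in glands 133, 392, 417_3 and 517_3. The tumors ranged from 0.12 over a median of 0.92 to 4.51 TPM, the last in tumor 89, just above the lowest gland. The log2 fold change was -2.34 with a standard error of 0.53 (limma adjusted p = 0.0136). The call was lost only with the adipocyte covariate (adjusted p = 0.188), and the 2 glands with most Gzma were also those with the most adipocyte RNA. The part of adipocyte content in the result was not tested beyond that fit.

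Gzmb, the other main granzyme, was at 3.42 and 2.15 TPM in glands 133 and 392 and at 13.5 and 10.8 TPM in glands 417_3 and 517_3, the reverse of Gzma. In the tumors it was at 19.6 TPM in tumor 89 and 0.74 to 5.66 TPM in the other 5 (limma adjusted p = 0.513). Prf1, the pore-forming perforin, was at 1.33, 1.01, 0.75 and 0.82 TPM in the glands. It was at 0.46, 5.15 and 1.37 TPM in carcinosarcomas 64, 567 and 897 and at 8.56, 0.15 and 5.22 TPM in carcinomas 89, 273_5 and 3956. Tumors 89, 567 and 3956 thus stood well above every gland, tumor 897 close to the highest gland and tumors 64 and 273_5 below every gland, and the difference did not pass (log2 fold change 0.78, 95% interval -0.48 to 2.03, limma adjusted p = 0.375). The repeat of tumor 3956 gave 4.79 TPM. The balance of the pair differed in every Trim24COE tumor. The ratio of Prf1 to Gzma was 0.0656 to 0.168 in the glands, 0.158 to 0.181 in the non-TRIM24 tumors and 0.297 to 18.6 in the Trim24COE tumors, without overlap. The highest value is that of tumor 3956, whose repeat library gave 5.15. This ratio, too, was chosen after its values were seen.

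Nkg7, a granule protein of NK and cytotoxic T cells, had the highest level of the 7 genes in the glands apart from Gzma in gland 133 and Gzmb in gland 417_3, at 10.6, 14.1, 12.7 and 13.5 TPM. It was at 5.90 to 13.1 TPM in tumors 64, 89, 567 and 897 and at 2.28 and 0.49 TPM in tumors 273_5 and 3956 (limma adjusted p = 0.175). Tumor 3956 thus held 5.22 TPM of Prf1 with 0.49 TPM of Nkg7, a ratio of 10.7 (5.15 in its repeat library), whereas the ratio was at most 0.873 in the other 12 mice. The 3 receptors of NK cells had differences of either sign. Klrk1 (NKG2D), an activating receptor of NK and CD8 T cells, was at 2.99, 2.76, 1.05 and 0.86 TPM in the glands and at 1.59 to 7.59 TPM in the tumors, with tumor 3956 alone within the range of the glands. Its log2 fold change was 0.85 with a standard error of 0.37 (limma adjusted p = 0.133), and 0.35 without glands 417_3 and 517_3. Klrb1c (NK1.1) was at 0.18 to 0.92 TPM in the glands and 0.11 to 2.92 TPM in the tumors (limma adjusted p = 0.280). Genes of the Klr family lie in a cluster of similar copies, so their reads can be split among them. Ncr1 (NKp46), the most specific NK marker of the list, was at 3.15 and 1.26 TPM in glands 133 and 392, 0.18 and 0.37 TPM in glands 417_3 and 517_3, and 0.05 to 2.92 TPM in the tumors. Its log2 fold change was -0.03, with a 95% interval from -1.04 to 0.98 (limma adjusted p = 0.972).

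**Figure D5:**
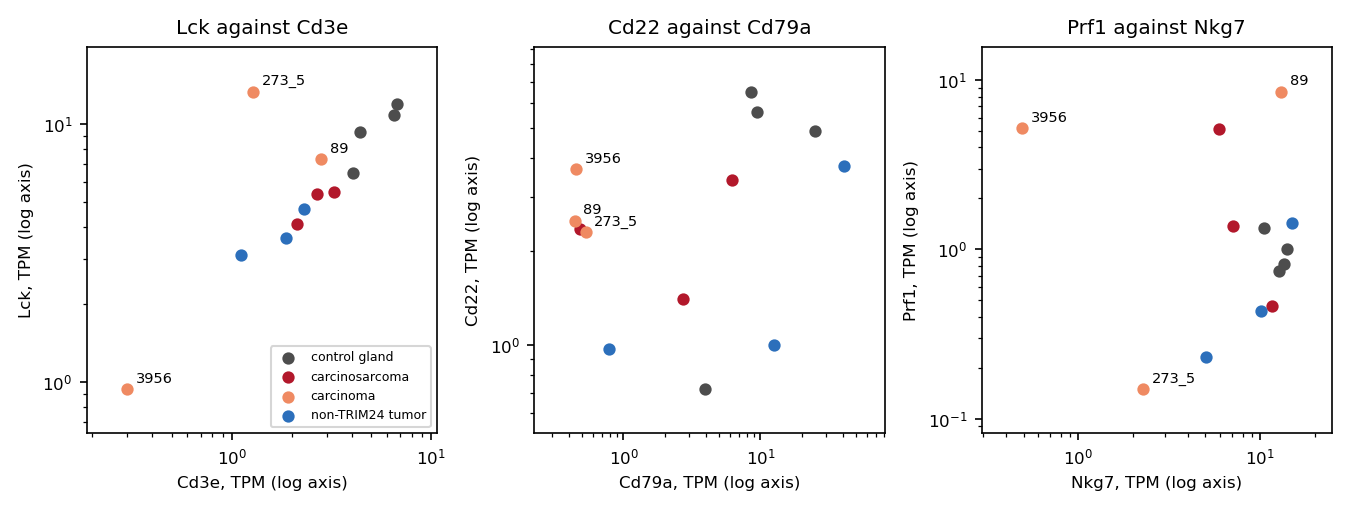
Pairs of genes plotted against each other in TPM (log axes, 1 point per mouse from its first library, colored by group). Tumor 273_5 lies off the line of Lck against Cd3e at 13.4 and 1.28 TPM, tumors 89, 567 and 3956 hold the most Prf1 at 5.15 to 8.56 TPM, and carcinomas hold Cd22 at 2.30 to 3.67 TPM with Cd79a at 0.44 to 0.53 TPM.

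Of 13 NK and cytotoxic companions, 7 were tested, with 2 lower and 1 higher, beside 9.13% and 7.96% of all genes tested. Xcl1, a chemokine of NK and activated CD8 T cells, was lower, at 2.52 ± 1.68 against 8.78 ± 0.831 TPM (log2 fold change -1.64, limma adjusted p = 0.0189), and so was the cathepsin Ctsw, at 3.01 ± 1.27 against 6.94 ± 0.981 TPM (log2 fold change -1.03, limma adjusted p = 0.0260). Gzmc, a further granzyme, was higher. It was at 0.32 to 0.75 TPM in the glands and at 20.0, 88.5, 12, 64.6, 1.81 and 29.8 TPM in tumors 64, 567, 897, 89, 273_5 and 3956, a log2 fold change of 3.96 with a standard error of 0.80 (limma adjusted p = 0.00800). No gland reached 1 TPM of Gzmc, so it passed the filter through the tumors alone. With glands 417_3 and 517_3 averaged or left out Gzmc was called, Ctsw was not, and Xcl1 was called only with the glands averaged. Among the granzymes Gzma thus fell and Gzmc rose. In the non-TRIM24 tumors Gzmc was at 7.48, 0.20 and 2.53 TPM.

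The 6 B cell genes summed to 9.77, 72.4, 26.0 and 25.7 TPM in glands 133, 392, 417_3 and 517_3, to 7.85, 17.8 and 5.30 TPM in carcinosarcomas 64, 567 and 897, and to 5.37, 4.57 and 5.31 TPM in carcinomas 89, 273_5 and 3956. Only tumor 567 exceeded the lowest gland. All 6 differences were negative, with a median of -1.32. Of the 4 genes tested, 2 were lower, beside 9.13% of all genes tested.

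Cd79a (chr7:24897381-24902197, plus strand), a signalling chain of the B cell receptor, was at 3.93, 24.9, 8.60 and 9.45 TPM in the control glands. The tumors ranged from 0.44 over a median of 0.51 to 6.24 TPM (tumor 567), and tumor 567 lay between gland 133 and gland 417_3. The log2 fold change was -2.25 with a standard error of 0.57 (limma adjusted p = 0.0215). Without gland 392, the gland with the most B cell RNA, the limma adjusted p was 0.0613, and without gland 517_3 it was 0.0508. Cd79b, its partner chain, was at 3.53 to 27.5 TPM in the glands and 0.81 to 5.56 TPM in the tumors, which gave a log2 fold change of -1.43 with a standard error of 0.52 (limma adjusted p = 0.0796). Ms4a1 (chr19:11249675-11266241, minus strand), which encodes CD20, was at 0.92, 8.03, 2.89 and 2.64 TPM in the glands. It was at 1.70 TPM in tumor 567 and 0.07 to 0.35 TPM in the other 5 tumors, and had a log2 fold change of -1.57 with a standard error of 0.41 (limma adjusted p = 0.0251). The call was lost without gland 392 (adjusted p = 0.0612), without tumor 64 (0.0519), without gland 417_3 (0.0574) and without gland 517_3 (0.0540).

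Pax5, the transcription factor that sets B cell identity, was at 0.38, 4.40, 1.37 and 1.29 TPM in the glands and at 0.01 to 0.25 TPM in the tumors. It did not overlap between the groups and was too low in too many libraries to be tested, and gland 133 was near the upper end of the tumors. Blk, a kinase of the B cell receptor, was at 0.29 to 2.75 TPM and 0.04 to 0.70 TPM. Cd22, an inhibitory co-receptor of B cells, went its own way. It was at 0.72, 4.88, 6.54 and 5.6 TPM in the glands and at 1.40 to 3.67 TPM in all 6 tumors, with a log2 fold change of -0.43 and a 95% interval from -1.32 to 0.46 (limma adjusted p = 0.5). In carcinomas 89, 273_5 and 3956 the ratio of Cd22 to Cd79a was 5.70, 4.34 and 8.16 and in carcinosarcoma 897 it was 4.90, whereas it was 0.183 to 0.760 in the glands. Carcinosarcomas 64 and 567 had 0.515 and 0.543, within the glands. Cd79a was at only 0.44 to 0.53 TPM in these carcinomas and 0.48 TPM in tumor 897, and the ratio was picked with its values known. The ratio of Cd22 to Cd79b was 1.55, 1.55 and 4.53 in carcinomas 89, 273_5 and 3956. It was 0.411 to 1.09 in the carcinosarcomas, the highest in tumor 897, and 0.178 to 1.22 in the glands.

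Of the 16 B cell companions, 11 were tested, with 5 lower and 1 higher, beside 9.13% and 7.96% of all genes tested. Ighd and Ighm, the heavy chain constant regions of IgD and IgM, were lower, with log2 fold changes of -1.91 and -3.89 (limma adjusted p = 0.00221 and 0.00625). Pou2af1 and Spib, transcription factors of the B lineage, had log2 fold changes of -1.67 and -1.23 (limma adjusted p = 0.0234 and 0.0260). Ighd was at 0.07 to 0.53 TPM in the tumors and 1.71 to 7.51 TPM in the glands, without overlap, and passed the filter through the glands alone. Btk, a kinase that B cells share with myeloid cells, was the 1 higher gene, at 6.91 ± 3.56 against 1.95 ± 1.36 TPM (log2 fold change 1.38, limma adjusted p = 0.0410). It was named after its values were seen. With glands 417_3 and 517_3 averaged or left out, Ighd and Ighm were called, and Pou2af1, Spib and Btk were not.

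Mzb1, a chaperone of immunoglobulin assembly in plasma cells and marginal zone B cells, was at 5.02, 55.0, 11.1 and 11.4 TPM in the control glands, and the tumors ranged from 0.47 over a median of 1.3 to 3.62 TPM, below every gland. The log2 fold change was -2.64 with a standard error of 0.58 (limma adjusted p = 0.0120), and the call was lost only with the adipocyte covariate (log2 fold change -2.33, adjusted p = 0.109). Tnfrsf17 (BCMA), a survival receptor of plasma cells, was at 0.90, 4.68, 0.11 and 0.08 TPM in the glands and 0 to 0.38 TPM in the tumors, so its difference rested on gland 392 and, less so, gland 133. All 14 plasma cell companions were tested, 8 were lower and 1 higher, beside 9.13% and 7.96% of all genes tested. Jchain, the joining chain of secreted IgM and IgA, was at 12.1 ± 7.43 TPM in the tumors and 226 ± 321 TPM in the glands (log2 fold change -3.37, limma adjusted p = 0.00935), and Igkc, the kappa constant region, at 225 ± 203 and 2537 ± 2909 TPM (log2 fold change -3.36, limma adjusted p = 0.0105). Derl3, of the secretory pathway, was lower as well (log2 fold change -1.89, limma adjusted p = 0.00805). Sdc1, which plasma cells share with epithelial cells, was higher, at 318 ± 236 against 42.4 ± 30.2 TPM (log2 fold change 2.91, limma adjusted p = 0.00862). Of these 4 companions, Derl3 alone lost its call with glands 417_3 and 517_3 left out (limma adjusted p = 0.0535), and none did with them averaged.

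Other cell types moved with these results. Of 10 lymph node stroma markers, 9 were tested and 3 were lower in the Trim24COE tumors, beside 9.13% of all genes tested, with none higher. They were Ccl19, which guides T cells in lymph nodes (0.31 ± 0.336 against 18.5 ± 14.3 TPM), Madcam1, the vascular ligand of homing lymphocytes (0.353 ± 0.345 against 7.5 ± 6.93 TPM), and Clec3b. Clec3b was at 91.7 and 190 TPM in glands 133 and 392, the glands with the most adipocyte RNA. It was at 18.3 and 20.7 TPM in glands 417_3 and 517_3 and at 1.24 to 46.5 TPM in the tumors. Ccl19 was at 1.86, 13.2, 24 and 35.1 TPM in glands 133, 392, 417_3 and 517_3 and at 0 to 0.93 TPM in the tumors. Ccl19 and Madcam1 passed the filter through the glands alone, and Madcam1 lost its call with glands 417_3 and 517_3 averaged or left out. The summed level of the 10 markers was 215, 402, 1067 and 1235 TPM in the glands and 44.7 to 602 TPM in the tumors, and 2 of the 10 were listed at 0 in tumor 273_5. This sum was carried by single genes. Glycam1, which mammary epithelium also makes as a milk protein, gave 821 and 960 TPM of it in glands 417_3 and 517_3, and Ccl21a gave 529 TPM in tumor 567. Without Glycam1 the sum was 170, 400.4, 246 and 275 TPM in the glands, and tumor 567, at 599.6 TPM, lay above all 4. The part of lymph node tissue in the differences above was not tested.

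Leukocyte genes in general did not follow the lymphocyte genes. Of 6 pan-leukocyte markers 5 were higher in the tumors and none lower, led by Cd53 (85.0 ± 32.2 against 17.9 ± 11.3 TPM, log2 fold change 2.25, limma adjusted p = 0.00282). Of 10 macrophage markers 9 were higher, among them the scavenger receptor Msr1 (log2 fold change 4.01, limma adjusted p = 0.000100), and their sum was 584 to 1512 TPM in the glands and 2436 to 7639 TPM in the tumors. All 5 neutrophil markers tested were higher, with S100a8 and S100a9 by 5.2 and 5.01 on the log2 scale (limma adjusted p = 0.00134 and 0.00111). Of these 5, Retnlg passed the filter through the tumors alone, since no gland reached 1 TPM, and Ly6g was too low to be tested. Of 4 dendritic cell markers tested, Zbtb46 was lower (log2 fold change -1.07, limma adjusted p = 0.0391) and none higher. These counts depended on glands 417_3 and 517_3. With the pair averaged or left out, 1 pan-leukocyte marker (Cd53) was higher in both settings, 8 and 6 macrophage markers, Msr1 among them, and 4 and 3 neutrophil markers, with S100a8 and S100a9, while Zbtb46 was not called. Ptprc, which encodes CD45 and is carried by every leukocyte, was at 19.8 to 39.2 TPM in the tumors and 11.4 to 24 TPM in the glands. Per 100 TPM of Ptprc, the T cell sum was 429, 397, 319 and 500 TPM in glands 133, 392, 417_3 and 517_3 and 16.0 to 189 TPM in the Trim24COE tumors, and the B cell sum 86.1 to 390 and 13.5 to 49.6 TPM. Neither overlapped between the groups. These ratios were picked with their values known.

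The tumor classes were then taken apart. Between the 3 carcinosarcomas and the 4 control glands, 25 of the 31 genes were tested and 4 were lower, with none higher, beside 23% of the 15287 genes tested (13.1% lower and 9.83% higher). They were Cd27 (log2 fold change -1.39, limma adjusted p = 0.0101), Tbx21 (-0.94, 0.0155), Gzma (-2.35, 0.0219) and Cd8a (-1.29, 0.0404). Tbx21, at 0.35, 0.35 and 0.29 TPM in the carcinosarcomas, again passed the filter through the glands alone. Without adjustment 13 of the 25 had p under 0.05. In 11 of the 31 genes every carcinosarcoma lay below every gland, beside 21.6% of all genes tested. In 1, Klrk1, every carcinosarcoma lay above every gland (3.20 to 5 against 0.86 to 2.99 TPM), beside 15.4%. Gzma was at 1.55, 1.86 and 0.12 TPM in carcinosarcomas 64, 567 and 897 and did not overlap the glands here. The call of Cd27 was lost without tumor 567, and those of Tbx21, Gzma and Cd8a were lost without any 1 of the 3 tumors. The call of Cd8a was also lost without gland 133, 417_3 or 517_3 and with glands 417_3 and 517_3 averaged or left out (limma adjusted p = 0.0824 and 0.101), whereas Cd27, Tbx21 and Gzma were called in both settings. Without the filter on low values none of the 4 was called.

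Carcinosarcomas and carcinomas of Trim24COE mice were then compared directly. None of the 21 genes tested passed limma's threshold, beside 0.698% of 14193 genes, and 2 had an unadjusted p under 0.05. These were Cd2, at 4.96, 16.1 and 4.14 TPM in carcinosarcomas and 3.64, 1.80 and 0.84 TPM in carcinomas (log2 fold change 1.48, limma adjusted p = 0.294), and Cd79b, at 3.41, 5.56 and 2.16 against 1.62, 1.48 and 0.81 TPM (log2 fold change 0.99, limma adjusted p = 0.283). Every carcinosarcoma lay above every carcinoma in these 2 genes, beside 7.33% of all genes tested. The difference was positive for 24 of the 31 genes, with a median of 0.27 beside -0.10 over all genes tested. Carcinomas varied more than carcinosarcomas in the T cell sum, whose SD was 20.7 TPM against 8.91 TPM (n = 3 each), and tumors 89 and 3956 stood at its ends.

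The non-TRIM24 tumors show these genes in mammary tumors that arose spontaneously in mice of unknown genotype. They were in batch 2 alone, so the comparison used all 15 libraries with a batch term. That term is set by the repeats of mice 133 and 3956 alone. None of the 29 genes tested differed from the control glands in limma, beside 0.107% of 16775 genes (0.0477% higher and 0.0596% lower), and 1, Gzma, had an unadjusted p under 0.05 (log2 fold change -1.95, limma adjusted p = 0.445). That count was 7 with the repeats of a mouse linked by duplicateCorrelation and 5 without the batch term, and Gzma was among them in both. The difference was negative for 22 of 31 genes, with a median of -0.24 beside -0.21 over all genes tested. In 9 of 31 genes every non-TRIM24 tumor lay below every gland, beside 19.9% of all genes tested, and in none did every tumor lie above, beside 6.49%. The T cell sum was 20.8, 34.0 and 40.1 TPM in tumors 219, FVB001 and FVB002, below every gland. Without the batch term 1 gene, Cd3e, was called. The B cell sum was 2.88, 30.6 and 84.9 TPM in the same tumors, so that 219 had the lowest and FVB002 the highest of the 13 mice. Cd79a was at 0.78, 12.6 and 40.9 TPM, and Mzb1 at 2.07, 3.67 and 25.1 TPM. The lymph node stroma sum was 1665, 716 and 1280 TPM in these 3 tumors, of which 1631 TPM in tumor 219 and 960 TPM in FVB002 were Glycam1 and 508 TPM in FVB001 were Clec3b. Without Glycam1 it was 33.5, 578 and 319 TPM. Ccl19 was at 0.97, 6.21 and 10.3 TPM, and the adipocyte sum was 226 TPM in tumor 219 and 50888 and 26307 TPM in FVB001 and FVB002. The part of lymph node tissue in these levels was not tested.

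Against the 3 Trim24COE carcinomas, labelled with the same class, the non-TRIM24 tumors differed in none of the 29 genes tested by limma, beside 0.0179% of 16775 genes, and 9 had an unadjusted p under 0.05. All 9 were lower in the Trim24COE carcinomas. With the repeats of a mouse linked by duplicateCorrelation the 9 became 2 (Cd79a and Cd79b), and without tumor 3956 or without FVB002 only Cd79a. The 9 genes of the main fit were Cd79a, Cd79b and Pax5 of the B cell genes, Mzb1, the T cell genes Cd3g, Cd2, Cd27 and Tbx21, and Nkg7. The largest difference was that of Cd79a, at 0.44, 0.53 and 0.45 TPM in carcinomas 89, 273_5 and 3956 (log2 fold change -3.48, standard error 1.14, limma adjusted p = 0.186). Cd79a passed the threshold without tumor 219. In Cd79a and Mzb1 every Trim24COE carcinoma lay below every non-TRIM24 tumor, beside 4.8% of all genes tested. The difference was negative for 26 of 31 genes, with a median of -0.67 beside 0.21 over all genes tested. With median-of-ratios scaling the median of all genes was -0.05, and no member was called. Per 100 TPM of Ptprc, the T cell sum was 301, 974 and 542 TPM in non-TRIM24 tumors 219, FVB001 and FVB002. These values lay above those of all 6 Trim24COE tumors (16.0 to 189 TPM), but the ratio has no batch term. In batch 2 it was 630 TPM in gland 133 and 29.4 TPM in tumor 3956, against 429 and 16.0 TPM in their first libraries. The part of the batch in this ratio was not tested. The comparison of the non-TRIM24 tumors with the Trim24COE carcinomas and that with the control glands share the non-TRIM24 libraries and come from 1 fit.

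The balance of T and B cell genes varied as much within groups as between them. The ratio of the T cell sum to the B cell sum was 4.99, 1.02, 2.95 and 2.74 in glands 133, 392, 417_3 and 517_3. It was 1.18 to 8.86 with a median of 5.42 in the Trim24COE tumors, where tumor 3956 had the lowest and tumor 89 the highest value, and 7.23, 1.11 and 0.472 in non-TRIM24 tumors 219, FVB001 and FVB002.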

How the data were processed

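RNA-seq was made of 3 carcinosarcomas and 3 carcinomas of Trim24COE mice, 4 control glands and 3 non-TRIM24 tumors. The deposited values are TPM, which the authors estimated with RSEM after aligning reads to GRCm38 (mm10) with STAR. The submitters' processing notes also list TopHat, Cufflinks, DESeq, edgeR and FastQC, without roles, and labels and methods name different RNA kits. The read counts behind the authors' own test were not used here. Groups and classes came from the labels, whereas the batch is the deposited set of values that holds the library. Apart from the repeat libraries, the labels call the samples separate animals. In the comparisons that used first libraries only, p-values measure the spread between animals as labelled. In the main fit with non-TRIM24 tumors, libraries of the same mouse were treated as independent. Its p-values therefore do not measure the spread between animals alone. The correlation between repeats of a mouse was estimated at 0.951 by duplicateCorrelation.

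Each comparison was fitted over all genes with limma 3.58.1 in R 4.3.3 (lmFit, eBayes with a variance trend) on log2(TPM + 1), as a two-sided test, and p-values were adjusted by Benjamini-Hochberg, with calls under 0.05. The added 1 TPM pulls changes of low genes toward 0. The number of libraries in which a gene had to reach 1 TPM was the number of mice in the smaller group. Comparisons within batch 1 used first libraries only. Those with non-TRIM24 tumors used all 15 libraries and a batch term, with repeats as separate libraries. The fits, with and without a batch term, were tested on simulated data with large changes in genes at higher levels. The simulated libraries were independent of each other. Linked repeats of a mouse and changes in low genes were therefore not checked.

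The 31 members, 4 companion lists and 9 lists of other cell types were chosen with earlier results of these data known. Companions are named by rule: up to 4 per list past the threshold in the Trim24COE tumors, by smallest p-value. Alternatives changed the pseudocount, the filter, the scaling, an adipocyte covariate, the fitted groups, the repeats, the batch term and each mouse in turn, and those on glands 417_3 and 517_3 were chosen after seeing the data. Gene positions are from GENCODE M21, and promoter sequences from RefSeq (GRCm38.p6). Immunoglobulin, T cell receptor and Klr genes share reads with near copies, so their levels are uncertain. The result of 1 gene of the B cell companion list, which stays in the counts, is not reported here.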

Additional observations from a re-analysis of the deposited data

Results flagged for a closer look

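Of 70 groups of 4 or 6 mice examined, 5 held 1 mouse whose gap to the nearest other mouse was large against the whole range of the group. Chance flags about 1 in 20 groups. Gland 133 had Cd4 at 1.26 TPM, with 3.43 to 3.81 TPM in the other 3 glands, and Cd22 at 0.72 TPM, with 4.88 to 6.54 TPM in the others. Its repeat library gave 1.46 TPM of Cd4 and 0.80 TPM of Cd22. Tumor 89 had Ifng at 2.96 TPM, with 0.08 to 0.50 TPM in the other 5 Trim24COE tumors. Tumor 567 had Ms4a1 at 1.70 TPM, with 0.07 to 0.35 TPM in the other 5. Tumor 3956 had a T cell sum of 6.26 TPM, with 30.4 to 49.5 TPM in the other 5, and 7.24 TPM in its repeat library.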

How the results depend on the processing

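Of the alternatives, 0 turned the direction of a member that was called. Among all members tested, called ones included, 5 of 25 changed sign in at least 1 alternative for the Trim24COE tumors against control glands. The numbers were 8 of 25 for carcinosarcomas against control glands and 10 of 21 for carcinosarcomas against carcinomas. They were 17 of 29 for non-TRIM24 tumors against control glands and 11 of 29 for carcinomas against non-TRIM24 tumors. In the Trim24COE tumors against control glands, 7 of 25 members and 2597 genes (17.1% of those tested) were called. The members called were 4 without the filter, 2 with the adipocyte covariate (1041 genes), 5 with glands 417_3 and 517_3 averaged, 4 with both left out, 9 with median-of-ratios scaling and 4 to 8 (1779 to 2911 genes) when 1 mouse was left out, the lowest without gland 517_3. In carcinosarcomas against control glands, 4 members and 3511 genes were called, with 0 and 1623 without the filter, 8 members with the adipocyte covariate, and 0 to 6 members (1345 to 3093 genes) when 1 mouse was left out. In carcinosarcomas against carcinomas, 0 members were called under each alternative run, and the 99 genes became 0 without the filter, 0 with the adipocyte covariate and 0 to 293 when 1 mouse was left out. In non-TRIM24 tumors against control glands, 0 members were called except 1 without a batch term. The 18 genes became 5 with 0.1 TPM added, 33 with median-of-ratios scaling, 30 with the adipocyte covariate, 1862 without a batch term, 119 with repeats linked by duplicateCorrelation, 5 and 42 with glands 417_3 and 517_3 averaged or left out, and 7 to 95 when 1 mouse was left out. In carcinomas against non-TRIM24 tumors, 0 members were called, and 0 to 1 when 1 mouse was left out. The 3 genes became 8 without the filter, 5 with scaling, 2166 without a batch term, 5 with duplicateCorrelation and 0 to 230 when 1 mouse was left out. Some of these counts of members stand without their share over all genes. Such counts show how far the calls depend on the setting, not an excess of members. The cause of these shifts was not tested.

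The log2 difference of the summed T cell level was -1.22, with -0.75 for the mean of log2(TPM + 1) and -1.38 to -0.78 when 1 mouse was left out, the latter without tumor 3956. That of the NK and cytotoxic sum was -0.89, with -0.29 and -1.20 to -0.62, the ends without tumors 89 and 273_5. That of the B cell sum was -1.95, with -2.43 to -1.46, and that of the plasma cell sum -3.41, with -1.69 for the mean of logs and -3.85 to -2.74. The plasma cell sum has no value without Mzb1, since Tnfrsf17 is listed at 0 in tumor 3956. Depth was unknown, so the error of levels under 1 TPM cannot be given. No paired analysis was possible because the groups share no replicate numbers.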

Other observations

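The variable genes of immunoglobulins, which were used to compare libraries, held a pattern outside the comparisons. Non-TRIM24 tumors FVB001 and FVB002 shared their most used heavy and light chain genes. Ighv12-3 made up 21.0% and 55.8% of all Ighv TPM in them and 0% to 1.87% in the other 13 libraries. Igkv4-91 made up 20.4% and 45.2% of all Igkv TPM and 0% to 3.69% in the others. The levels were 7.5 and 150 TPM for Ighv12-3 and 85.1 and 1038 TPM for Igkv4-91. Without Igkv4-91 the correlation of V gene usage between these tumors was 0.323 in place of 0.815. Variable genes are near copies of one another, so the split of reads among them is uncertain, and the 2 genes were picked with their values known.

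The constant regions of the T cell receptor parted in tumor 3956. Trbc2, of the beta chain, was at 61.5 TPM and Trac, of the alpha chain, at 0.84 TPM, and the repeat library gave 70.2 and 2.92 TPM. The ratio of Trbc2 to Trac was 73.2 and 24 in these libraries and 1.40 to 7.27 in the other 12 mice. Lat, an adaptor of T cell receptor signalling, was at 30.7 TPM in tumor 64, where Cd3e was at 2.68 TPM, and at 1.01 to 9.81 TPM in the other 12 mice. These genes were picked with their values known.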
